A study of Drosophila melanogaster with 5 samples.

Results

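Small Tims, the chaperones of the mitochondrial intermembrane space, and the Tom and Tim subunits that form the import channels were followed through the polysomes of Drosophila S2 cells. The set was named gene by gene: Tim8, Tim9a, Tim9b, Tim10, Tim13, Tim17b, Tim23, Tom20 and Tom40, with every annotated coding sequence (CDS) whose gene name, without its isoform suffix, equals one of these. Of the 9 genes, 8 are listed, with 13 CDS entries that collapse to 8 CDSs of distinct coordinates, out of 28529 entries, 21870 distinct CDSs and 13967 genes. Tim23 was not analysed here, and Tim17b is listed with no density in any library. Tim13 has 0 reads everywhere, so 6 genes carry values: Tim8, Tim9a, Tim9b, Tim10, Tom20 and Tom40.

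S2 cells are a line of embryonic origin, grown in Schneider's medium with fetal bovine serum, treated with cycloheximide, which halts elongating ribosomes, before harvest and during lysis, and fractionated on sucrose gradients. Footprints (28 to 34 nt of mRNA protected by a ribosome) came from fractions of 2 to 6 ribosomes per mRNA, the small polysomes, and of 7 or more, the large polysomes; a second, deeper small polysome preparation (extensive) and 1 of all polysomes, with rRNA depleted, were added. Cytoplasmic poly(A) mRNA of the same line is the control, so each group is that line with cycloheximide and no other genotype or agent. Small polysomes have 2 libraries, large and all polysomes have 1 each, and the mRNA is 1 deposited column that appears to pool 2 libraries. Intervals below therefore cover counting error only, while the pair of small polysome libraries shows how far biological replicates lay apart. Since cells were lysed in bulk, fewer cells using an mRNA and less RNA per cell cannot be told apart.

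Most mitochondrial proteins are made in the cytosol and pass the outer membrane through the TOM complex, where Tom20 is a receptor for presequences and Tom40 is the channel. In yeast and human cells, the small Tims form ring-shaped Tim9-Tim10 and Tim8-Tim13 complexes that guard hydrophobic precursors across the intermembrane space, and Tim17 and Tim23 form the inner membrane channel for precursors with presequences. The study asks whether CDSs this short are translated and in which polysomes, a smORF being a CDS of at most 100 aa.

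In FlyBase Release 5 coordinates, Tim8 (FBgn0027359) has a CDS of 88 aa in 2 exons on the plus strand of chromosome X, from 11262569 to 11262913. Tim9a (FBgn0030480) encodes 95 aa in 3 exons on the plus strand of X, from 13279370 to 13279825. Tim10 (FBgn0027360) encodes 92 aa in 2 exons on the minus strand of 2R, from 17577852 to 17578293. Tim13 (FBgn0036204) also encodes 92 aa, in 1 exon on the minus strand of 3L, from 11767234 to 11767512. These 4 are smORFs. Tim9b (FBgn0027358) encodes 117 aa in 3 exons on the minus strand of X, from 19511984 to 19512458, and lies above the smORF limit. Among the larger partners, Tom20 (FBgn0036928) encodes 171 aa in 3 exons on the plus strand of 3L, from 19994267 to 19995259. Tom40 (FBgn0016041) encodes 344 aa in 4 exons on the plus strand of X, from 7631503 to 7633073, and Tim17b (FBgn0263977) encodes 173 aa in 3 exons on the minus strand of 3RHet, from 1813846 to 1823858.

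The libraries hold 2625000 to 9160000 mapped reads by the divisors of their densities, large polysomes being the shallowest and extensive small polysomes the deepest. One read on Tim8 is worth 0.409 RPKM in the deepest library and 1.43 RPKM in the shallowest. For the cell identity, 6 of 7 hemocyte markers and 3 of 5 markers of other cell types exceeded 1 RPKM of mRNA. NimC1 and nSyb had also been planned as markers and are not among those counted. The hemocyte markers Cg25C (1.07 RPKM) and vkg (1.73 RPKM) were near the neuronal marker elav (1.68 RPKM) and below the muscle marker Mlc2 (3.28 RPKM). These counts alone therefore do not separate the lists. The hemocyte markers ran from 0.019 RPKM (Hml) to 327 RPKM (Pxn), and the other markers from 0 RPKM (vas) to 26.2 RPKM (bam), so the label is carried by part of the hemocyte list only.

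Among the 6 members, Tim10 had the most abundant mRNA per length, and Tom20 carried the densest footprints in every fraction. The mRNA density was 282 RPKM (95% interval 254 to 313) for Tim10, 219 RPKM for Tom20, 92.0 RPKM for Tim8 and 42.6 RPKM for Tim9a. Tom40 and Tim9b were the lowest, at 28.0 and 24.8 RPKM, and these neighbours did not differ beyond counting error (ratio 1.13, 0.787 to 1.65). Per length, therefore, the mRNA of the chaperone Tim10 exceeded that of the channel Tom40, and Tim9a and Tim10, whose homologues share a ring, were far from equal in mRNA. Tim10 over Tim9a was 6.62-fold in mRNA (4.98 to 8.93), 4.49-fold in initial small polysomes (3.64 to 5.58) and 1.94-fold in the extensive ones (1.68 to 2.24). The excess of Tim10 over Tim9a was thus present in each of these 3 libraries, but its size in footprints differed more than 2-fold between the replicates.

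**Figure D1:**
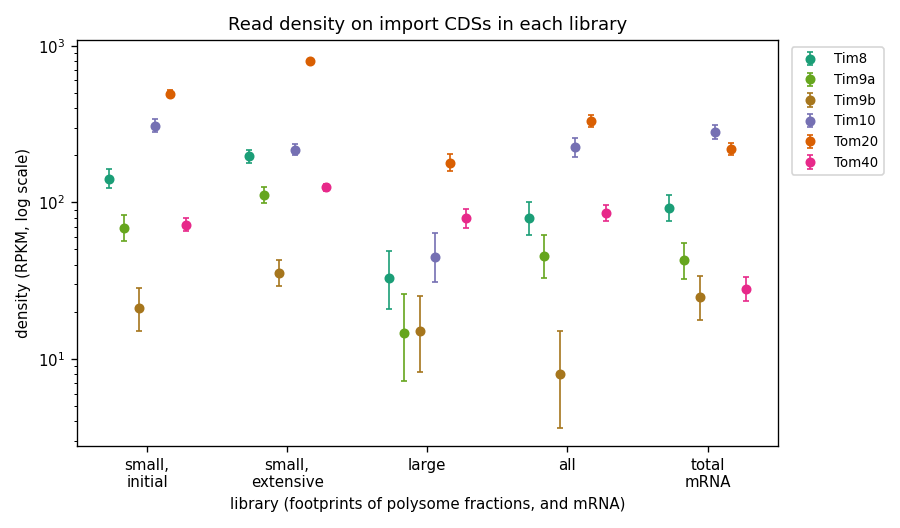
Read density (RPKM, log axis) of the 6 import CDSs with reads, in 4 footprint libraries and total mRNA; points are single footprint libraries or the mRNA value as deposited, and bars are exact Poisson 95% intervals for counting error. Tom20 is the highest of the 6 in every footprint library (179 to 801 RPKM). Tom20, Tim10, Tim8 and Tim9a are lower in large than in both small polysome libraries, with intervals that do not overlap. Tim9b is also lower, but its interval in large polysomes overlaps that of the initial library.

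Footprints on Tim8 reached 142 RPKM in initial small polysomes (208 reads), 196 RPKM in extensive small polysomes (480 reads), 32.8 RPKM in large polysomes (23 reads) and 79.8 RPKM in all polysomes (68 reads). Both small polysome values lie above the large polysome value, and the intervals do not overlap. Tim9a gave 68.8 RPKM (109 reads), 112 RPKM (295 reads), 14.6 RPKM (11 reads) and 45.7 RPKM (42 reads) in the same order. Tim10 gave 309 RPKM (474 reads), 217 RPKM (555 reads), 45.1 RPKM (33 reads) and 225 RPKM (200 reads). For Tim9a and Tim10 as for Tim8, large polysomes had the lowest density of the 4 footprint libraries.

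Tim9b was sparser than the 3 smORF Tims in small polysomes and had another order of libraries. Its densities were 21.1 RPKM in initial small polysomes (41 reads), 35.5 RPKM in extensive small polysomes (115 reads), 15.1 RPKM in large polysomes (14 reads) and 7.97 RPKM in all polysomes (9 reads). The all-polysome value was the lowest here, and its interval (3.64 to 15.1 RPKM) lies below that of the extensive library (29.3 to 42.6 RPKM). In large polysomes Tim9b and Tim9a could not be separated (ratio 1.04, 0.437 to 2.52), whereas in initial small polysomes Tim9a was 3.27-fold denser (2.26 to 4.80).

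Tim13, the partner of Tim8 in yeast and human cells, had 0 reads in all 5 libraries. A limit of 3 reads corresponds to 1.96 RPKM in initial small polysomes, 1.17 RPKM in extensive ones, 4.10 RPKM in large, 3.37 RPKM in all polysomes and 2.36 RPKM in mRNA. Reads with more than 1 match had been removed by the authors, so a CDS that shares sequence with another would be listed too low, and no such test was made for Tim13.

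The receptor Tom20 had 494 RPKM in initial small polysomes (1402 reads), 801 RPKM in extensive small polysomes (3787 reads), 179 RPKM in large polysomes (243 reads) and 330 RPKM in all polysomes (543 reads). Its density in initial small polysomes exceeded that of 98.6% of the 14151 distinct standard CDSs (over 100 aa) with mRNA. Tom40, the channel, had 72.1 RPKM (410 reads), 124 RPKM (1180 reads), 79.1 RPKM (215 reads) and 85.7 RPKM (283 reads) in the same order. Its large polysome density thus fell between the small polysome replicates, unlike that of each other member with reads. Tom20 over Tom40 was 6.86-fold in initial small polysomes (6.14 to 7.68), 2.27-fold in large polysomes (1.88 to 2.74) and 7.83-fold in mRNA (6.45 to 9.55).

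A CDS counts as translated in a library when its density is about 12 RPKM or more, footprints cover at least 0.57 of its length and at least 5 reads fall in it, after the study's definition. By this, 6 members were translated in initial small polysomes, 6 in extensive small polysomes, 4 in large polysomes and 5 in all polysomes. Of all 14482 distinct CDSs with mRNA reads, 49% were translated in initial small, 59.3% in extensive small, 40.9% in large and 64.7% in all polysomes. For the 331 such smORFs the shares were 64.4%, 74.6%, 35.6% and 65.9%. The large polysome misses were Tim9a and Tim9b, whose densities passed but whose footprints covered 0.337 and 0.328 of the CDS. Tim9b also missed in all polysomes, by density and by its coverage of 0.50. Tim8, Tim10, Tom20 and Tom40 were translated in all 4 libraries, with coverages from 0.805 (Tim8, large polysomes) to 1.

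Large polysomes were then set against the initial small polysomes, the library made in the same experiment, as a ratio of densities. Tim10 was 6.86-fold lower in large polysomes (95% interval 4.82 to 10.1), Tim9a was 4.73-fold lower (2.54 to 9.76), and Tim8 was 4.32-fold lower (2.80 to 6.96). Tom20 was 2.75-fold lower (2.40 to 3.17). The remaining members did not separate the fractions by this measure: the ratio of large to small was 0.715 for Tim9b (0.360 to 1.34) and 1.10 for Tom40 (0.927 to 1.30).

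Hence 4 of the 6 members with reads were at least 2-fold lower in large polysomes, where 16.2% of 12263 distinct CDSs and 75.1% of 305 smORFs with a mean density of at least 1 RPKM were so, and 36% of all CDSs were at least 2-fold higher. The share among the 3 smORF members with reads (Tim8, Tim9a and Tim10, each of them lower) was therefore read against the smORF share, not against that of all CDSs. The ratio rose with CDS length across all CDSs: its median was 0.238 at up to 100 aa, 0.311 in the next length class, which holds Tim9b, 0.562 in that of Tom20, 1.27 in that of Tom40 and 1.99 in the longest CDSs. Within its own length class, Tim8 had a ratio above that of 48.0% of CDSs, Tim9a above 43.3%, Tim10 above 28.9%, Tom20 above 28.1% and Tom40 above 43.6%. Tim9b, above 80.4% of its class, was the member most shifted towards large polysomes for its length, although its 14 reads in that fraction leave a wide interval.

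**Figure D2:**
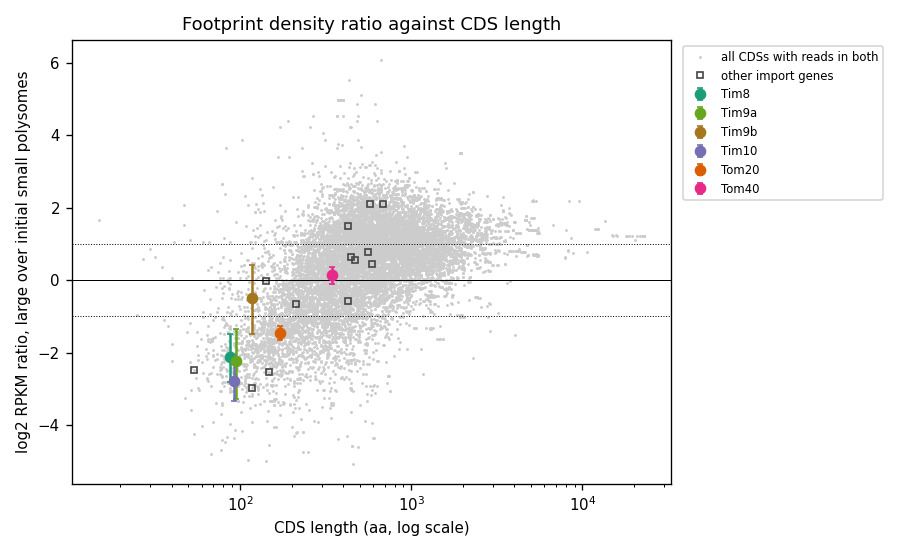
Log2 ratio of footprint density, large over initial small polysomes, against CDS length in aa (log axis); coloured points are the import members with exact 95% counting intervals, open squares are other import genes, grey points are all other CDSs with reads in both libraries, and dotted lines mark 2-fold. Tim8, Tim9a, Tim10 and Tom20 lie below the lower dotted line, Tim9b and Tom40 between the lines.

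Replicates moved these ratios. Extensive over initial density was 1.39 for Tim8 (1.17 to 1.64), 1.62 for Tim9a, 1.68 for Tim9b, 1.62 for Tom20 and 1.73 for Tom40 (1.54 to 1.94), against a median of 1.17 over 8274 CDSs with at least 50 reads in each of the small and large polysome libraries. Tim10 alone of the 6 was lower in the extensive library, at 0.703 of its initial density (0.621 to 0.796). Across those CDSs the SD of the log2 ratio between replicates was 0.53. With the extensive library in place of the initial one, large polysomes were 5.98-fold lower for Tim8 (3.94 to 9.53), 7.69-fold for Tim9a (4.23 to 15.6), 4.82-fold for Tim10 (3.39 to 7.07), 4.47-fold for Tom20 (3.92 to 5.11), 2.35-fold for Tim9b (1.35 to 4.44) and 1.57-fold for Tom40 (1.36 to 1.83). The smORF Tims and Tom20 were thus at least 2-fold lower in large polysomes against either replicate, Tim9b against the extensive one only, where 24.2% of all 12263 CDSs and 82.3% of the smORFs were. Tom40 had a log2 ratio of large to small of 0.14 with the initial library, where its interval holds equality, and of -0.65 with the extensive one, while scales that shift every CDS alike put it at -0.34 (per read in longest CDSs) and -0.74 (relative to the median CDS).

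That last scale matters because the median of the 8274 CDSs was itself 0.87 higher in large polysomes on the log2 scale. Densities were divided by 5498000 reads in initial small and 2625000 in large polysomes, near the study's counts before multiple matches were removed. The study gives initial small polysomes the lowest share of unique matches, which lowers their densities beside large and extensive small polysomes. How much of the 0.87, or of the replicate median of 1.17, this makes was not tested. Relative to the median of the 8274 CDSs, the log2 ratios were -3.65 for Tim10, -3.12 for Tim9a, -2.98 for Tim8, -2.34 for Tom20 and -1.36 for Tim9b. On this scale Tim9b also passed 2-fold, which makes 5 members, where 30.4% of all CDSs and 84.6% of smORFs passed. Over all 12263 CDSs the median log2 ratio was 0.61, so a centre taken over CDSs well read in large polysomes lowers each ratio further.

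A test over all CDSs used limma on log2(RPKM + 1), with both small polysome libraries against the 1 large polysome library, which was assumed to vary like them. No CDS of 12263 passed an adjusted p of 0.05 in either direction (0% lower and 0% higher), while 4556 had an unadjusted p under 0.05, the members Tim8, Tim9a, Tim10 and Tom20 among them. Large minus mean small was -2.51 (SE 0.46) for Tim9a, -2.50 (SE 0.43) for Tim10 and -2.31 (SE 0.41) for Tim8, each with a limma adjusted p of 0.103. For Tom20 it was -1.80 (SE 0.51, limma adjusted p 0.109), for Tim9b -0.82 (SE 0.47, limma adjusted p 0.264) and for Tom40 -0.26 (SE 0.49, limma adjusted p 0.719). When each library was centred on its median CDS, 2518 CDSs were called lower and 1219 higher by limma, and 5 members were called lower, with Tom40 at a limma adjusted p of 0.295. The calls on the members therefore depended on the scale, and the sizes of the differences stand as descriptions of 3 libraries.

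Translational efficiency (TE), footprint density over mRNA density, placed Tom40 at the top of the members in initial small, extensive small, large and all polysomes, although its mRNA was among their lowest. Its TE was 2.58 in initial small polysomes (2.11 to 3.16), 4.45 in extensive small (3.71 to 5.37), 2.83 in large (2.27 to 3.54) and 3.06 in all polysomes (2.48 to 3.80). Tom40 mRNA exceeded that of 61.2% of standard CDSs, while its TE exceeded that of 95.5% in initial small polysomes and 91.9% in large polysomes. Tom20 had a TE of 2.26 in initial small (2.04 to 2.50), 3.66 in extensive small, 0.820 in large (0.701 to 0.957) and 1.51 in all polysomes, so that the receptor and the channel overlapped in small initial polysomes and separated in large ones.

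Among the small Tims, TE in initial small polysomes was 1.61 for Tim9a (1.16 to 2.27), 1.54 for Tim8 (1.22 to 1.96), 1.10 for Tim10 (0.953 to 1.26) and 0.850 for Tim9b (0.536 to 1.35). In extensive small polysomes it was 2.62 for Tim9a (1.97 to 3.56), 2.13 for Tim8 (1.73 to 2.64), 1.43 for Tim9b (0.991 to 2.11) and 0.770 for Tim10 (0.673 to 0.881). Tim10, with the most mRNA, thus had less footprint density per mRNA than Tim9a in both replicates, by intervals that do not overlap in the extensive library and overlap in the initial one. In large polysomes the TE was 0.608 for Tim9b (0.306 to 1.14), 0.357 for Tim8 (0.217 to 0.562), 0.341 for Tim9a (0.161 to 0.658) and 0.160 for Tim10 (0.108 to 0.228). Tim10 had the lowest TE of the 6 members in this fraction. In all polysomes the values were 1.07 for Tim9a, 0.868 for Tim8, 0.796 for Tim10 and 0.322 for Tim9b (0.137 to 0.673), the last being above only 10.1% of standard CDSs.

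As sets, the 4 small Tims with reads had a median TE of 1.32 in initial small polysomes and 1.78 in extensive ones, where Tom20 and Tom40 had 2.42 and 4.06. All smORFs with mRNA had medians of 1.10 and 1.33 there, and standard CDSs 0.765 and 0.937. In large polysomes the median was 0.349 for the small Tims, 1.82 for Tom20 and Tom40, 0.261 for smORFs and 1.03 for standard CDSs. In all polysomes it was 0.832 for the small Tims and 2.29 for Tom20 and Tom40, beside 0.746 for smORFs and 1.14 for standard CDSs. The small Tims lay closer to the smORF median than to the Tom pair in each library, and Tom40 lay above the standard median in each, whereas Tom20 lay below it in large polysomes (0.820 against 1.03, above 38.5% of standard CDSs). With 4 and 2 CDSs these medians are descriptions.

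**Figure D3:**
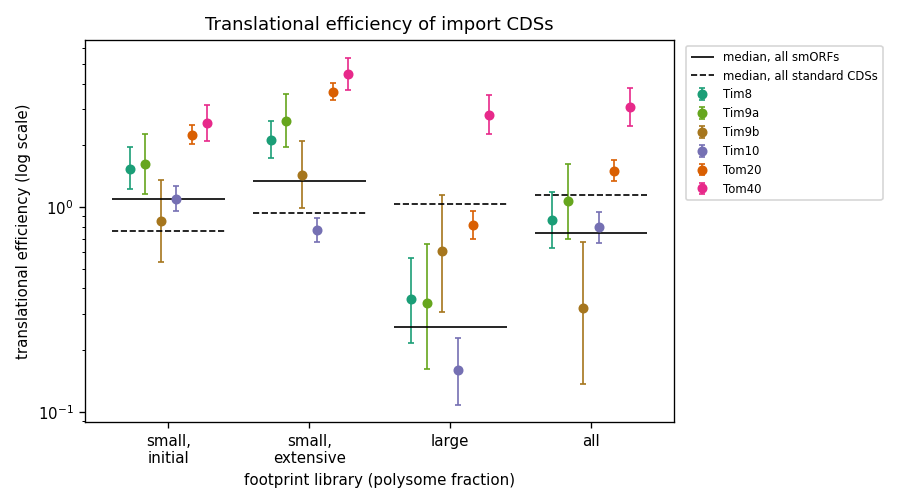
TE (footprint RPKM over mRNA RPKM, log axis) of the 6 import CDSs in 4 footprint libraries; bars are exact 95% counting intervals, solid lines the median of all smORFs and dashed lines that of all standard CDSs. Tom40 keeps a TE of 2.58 to 4.45 in all 4 libraries, while Tim10 ranges from 0.160 in large to 1.10 in initial small polysomes.

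Tim8 and Tom20 carry a translated upstream ORF (uORF), a short reading frame ahead of the CDS in the same transcript. The uORF of Tim8 is listed at 30 nt on X from 11262514 to 11262543, 25 nt before the CDS. Whether listed uORF ends include the stop codon was not tested, so uORF lengths are given in nt. It had 78.8 RPKM in initial small polysomes (13 reads), 18.2 RPKM in extensive small (5 reads), 88.9 RPKM in large (7 reads) and 115 RPKM in all polysomes (11 reads). That of Tom20 is listed at 33 nt on 3L from 19994209 to 19994241, also 25 nt before the CDS. In the same order, it had 209 RPKM (38 reads), 341 RPKM (103 reads), 196 RPKM (17 reads) and 228 RPKM (24 reads). Both passed the definition of translated in all 4 footprint libraries, where 9.84% of 9522 distinct single-exon uORFs did so in initial small, 19.5% in extensive small, 8.06% in large and 14.1% in all polysomes. Each is about as long as 1 footprint, so few positions within it can be told apart. A single footprint can meet the coverage cut-off there, and the call rests on density and reads. In extensive small polysomes the Tim8 uORF lay at the minimum of 5 reads, with a coverage of 0.7.

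Across fractions the uORFs of Tim8 and Tom20 did not follow their CDSs. The same ratio over all uORFs was not taken, so whether this is particular to them was not tested. In the study, the median TE of uORFs was somewhat higher in large than in small polysomes, while that of annotated smORFs was lower. The ratio of large to initial small polysomes was 1.13 for the Tim8 uORF (0.381 to 3.04) and 0.232 for the Tim8 CDS (0.144 to 0.357). For Tom20 it was 0.937 for the uORF (0.496 to 1.70) and 0.363 for the CDS (0.315 to 0.416), so the intervals of uORF and CDS do not overlap in either gene. Density on the uORF relative to the CDS in Tom20 was 0.424 and 0.425 in the small polysome replicates and 1.09 in large polysomes (0.627 to 1.79). In Tim8 it was 0.556 in initial small (0.291 to 0.972), 0.093 in extensive small (0.030 to 0.218) and 2.71 in large polysomes (0.982 to 6.52), so here the replicates lay apart too. The uORF of Tom40, listed at 54 nt on X from 7631020 to 7631073, lies 429 nt upstream of the CDS and had 0 reads in every footprint library. A limit of 3 reads there is 10.1 RPKM in initial small, 6.07 RPKM in extensive small, 21.2 RPKM in large and 17.4 RPKM in all polysomes. The 2 uORFs listed for Tim17b and the 1 listed for Tim23 have no densities.

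Tim10 and Tim9b each share transcripts with a second CDS, by the exon structures of the Ensembl annotation; these neighbours were chosen after values were seen. CG42497, of 65 aa on 2R from 17578346 to 17578614, ends 52 nt before Tim10 on 1 of the 2 Tim10 transcripts. Its density was 329 RPKM in initial small polysomes, 288 RPKM in extensive small, 106 RPKM in large, 225 RPKM in all polysomes and 206 RPKM in mRNA. Relative to Tim10 this is 1.06 in initial small (0.925 to 1.22), 1.33 in extensive small (1.17 to 1.50), 2.35 in large (1.50 to 3.73), 1.00 in all polysomes (0.801 to 1.25) and 0.730 in mRNA (0.608 to 0.874). Tim10 and CG42497 thus had like densities in initial small and all polysomes, and the upstream CDS was denser in large polysomes. CG42497 itself was 3.11-fold lower in large than in initial small polysomes (2.33 to 4.21), beside 6.86-fold for Tim10.

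CG12788, of 292 aa on X from 19510943 to 19511821, begins 162 nt after Tim9b on both of its transcripts. The pair had like mRNA densities, 24.9 RPKM for CG12788 and 24.8 RPKM for Tim9b (ratio 1.01, 0.691 to 1.49). Footprints on CG12788 stood at 24.0, 28.7, 6.07 and 21.8 RPKM in initial small, extensive small, large and all polysomes. Over Tim9b this is 1.14 (0.792 to 1.67), 0.809 (0.644 to 1.02), 0.403 (0.178 to 0.911) and 2.73 (1.35 to 6.25). CG12788 was 3.96-fold lower in large than in initial small polysomes (2.27 to 7.46). Tim9b was 1.40-fold lower there, with an interval that overlaps (0.747 to 2.78), and 2.35-fold lower against the extensive library (1.35 to 4.44). CG12788 passed as translated in all polysomes, where Tim9b did not. The order of the pair therefore differed between large and all polysomes, on 14 and 9 reads of Tim9b.

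**Figure D4:**
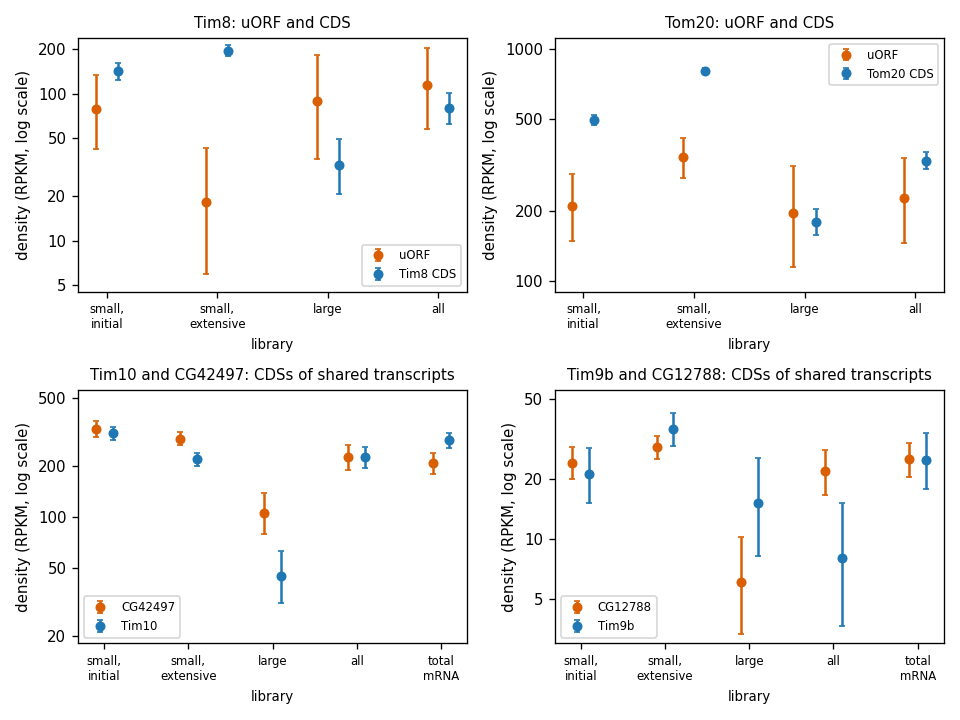
Density (RPKM, log axis) by library of the uORF and CDS of Tim8 and Tom20 (upper panels) and of Tim10 and Tim9b with the CDS that shares their transcripts (lower panels); bars are exact Poisson 95% intervals. In large polysomes the Tim8 uORF stands at 88.9 RPKM above its CDS at 32.8 RPKM, and Tim10 stands at 45.1 RPKM below CG42497 at 106 RPKM.

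Other import genes put the members in context. Of 26 symbols listed, 21 matched a gene, 14 had reads and 13 passed the density filter. Among these 13, 3 were at least 2-fold lower in large than in initial small polysomes, where 16.2% of all CDSs were. Another 3 were at least 2-fold higher, where 36% of all CDSs were, and 7 lay between. The median ratio of the 13 was 1.36, beside 1.52 for all CDSs. The lower ones were short: CG7394 (118 aa, named TIM14 in RefSeq, a motor subunit in yeast) with a ratio of 0.126 (0.050 to 0.269), mge (148 aa, the Tom22 receptor) with 0.174 (0.130 to 0.227) and Tom7 (54 aa, a small TOM subunit) with 0.179 (0.104 to 0.289). Tom20 (0.363) and Tom40 (1.10) had higher ratios than mge and Tom7, whose intervals lie below that of Tom20. The higher ones were long: Hsp60 (573 aa, the matrix chaperonin) with 4.33, Hsc70-5 (686 aa, the mitochondrial Hsp70) with 4.32 and CG11779 (428 aa) with 2.83.

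By TE in initial small polysomes, blp (141 aa, Pam16 in yeast) was highest in this list at 2.26 and Hsp60 lowest at 0.295. Tom40 (2.58) stood above the list there, but its interval (2.11 to 3.16) holds the value of blp, and Tom20 (2.26) stood level with blp. In the extensive library mge (4.44) stood level with Tom40 (4.45), and blp (3.76) with Tom20 (3.66). Of the 13, 13 were translated in initial small, 13 in extensive small, 10 in large and 13 in all polysomes. The shares over all CDSs with mRNA were 49%, 59.3%, 40.9% and 64.7%. Those CDSs had not passed the footprint density filter that chose the 13, so the counts and shares are not on like terms. Listed at 0 reads in every library, like Tim13, were 7: Tim17a1, Tim17a2, Tim17b1, Tim17b2, tomboy20, ttm2 and ttm3. Tom20 and Tom40 were thus read in S2 cells while tomboy20 was at 0 and tomboy40 had 0 RPKM of mRNA and at most 2.03 RPKM of footprints.

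Among 13835 genes, those closest in profile over the 5 libraries to the median of the small Tims (Euclidean distance of log2(RPKM + 1)) were CG2147 (distance 0.31), CG14671 (0.40) and CG14411 (0.41), against a median distance of 10.6. Nearest to Tom40 were Tsp39D (0.53), Rap2l (0.60) and CG8726 (0.61), with a median of 11.6. CG2147 had 81.8 RPKM in initial small and 16.1 RPKM in large polysomes, and Tsp39D had 57.3 and 63.0 RPKM. Tim13, at 0 reads, was 1 of the 5 small Tims in this median. The median therefore held the values of Tim9a (68.8 RPKM in initial small polysomes), except in large polysomes, where it was that of Tim9b. It lay far from Tim10 (309 RPKM in initial small polysomes), so the genes named resemble this median and not the small Tims as a set. They include a CDS of 843 aa, CG14411, as well as shorter ones.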

How the data were processed

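Reads were filtered by the authors against rRNA and tRNA (Bowtie) and aligned to FlyBase Release 5.50 (TopHat, at most 2 mismatches). Multiple matches were discarded, but the divisors of the densities lie near the study's counts of mapped reads before that step. The deposited tables give RPKM per CDS and uORF. The authors computed coverage as the fraction of an ORF under footprints. The mRNA column appears to pool 2 libraries. Reads were recovered as RPKM times length times a divisor and came out whole (tolerance 0.01) for 100% of CDSs. Poisson and conditional binomial (Clopper-Pearson) intervals at 95% cover counting error only. The density cut-off of the study is 11.8 RPKM. The test was limma 3.58.1 in R 4.3.3 (trend, pseudocount 1, mean of at least 1 RPKM, Benjamini-Hochberg, 1 residual degree of freedom). Its spread came from the 2 small polysome libraries and from what limma shares across CDSs. The p-values therefore hold nothing on variation among large polysome libraries. The fit was tested on simulated data, where it recovered the changed CDSs but also called unchanged ones, more often than the fit weighted by expected reads. The simulated libraries had less spread than the replicates here, only large changes and no shift over most CDSs. They therefore do not show how the fit performs on these data. Other steps used Python 3.11.15, pandas 2.3.3 and scipy 1.17.1.

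Members and lists were chosen with earlier results of these data known. Named were all members, other import genes past 2-fold or of extreme TE, and the 3 nearest genes by profile. The median CDS was taken over CDSs with at least 50 reads in both small and the large polysome library, where 2 libraries had been planned. For limma, each library was instead centred on its median over every CDS tested. The alternatives concern the replicate, scale, filter, pseudocount, cut-offs and counting unit. Of 11587 uORF transcripts, 11021 matched a gene. ORFs in ncRNAs, protein features and sequences were not analysed here, and 0 columns of per-sample values were left unmapped.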

Additional observations from a re-analysis of the deposited data

How the results depend on the processing

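No paired analysis was possible because large polysomes have 1 library, which forms a single pair with the initial small polysome library. With limma, the counts of CDSs lower and higher in large polysomes went from 0 and 0 to 7 and 418 with no filter on low values (Tim13 then entered, and no member was called), to 2518 and 1219 after centring (5 members called) and to 2340 and 1191 after weighting by expected reads and centring (4 members called, without Tim9b), an alternative chosen after seeing the data. Limma adjusted p-values of members ranged from 0.0954 to 0.722 over other CDS units and pseudocounts. Counting every CDS entry, 11 entries of members were translated in initial small, 11 in extensive small, 8 in large and 9 in all polysomes, since isoforms repeat a CDS. Relative to the library median, the TE in initial small polysomes was 1.71 for small Tims, 3.14 for Tom20 and Tom40, 1.42 for smORFs and 0.992 for standard CDSs. Unscaled TE in the extensive library was 1.78 for small Tims and 4.06 for Tom20 and Tom40. Against that library, 5 of the 13 other import genes were at least 2-fold lower in large polysomes, as were 24.2% of all CDSs. Leaving out either small polysome library gave 4 to 5 members at least 2-fold lower, Tim9b being added without replicate 1. No other alternative run moved a count of members or of other import genes by over 1.5 times, and none turned the direction of a member that was at least 2-fold lower. Depth limits Tim9a and Tim9b most, with 11 and 14 reads in large polysomes.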
